A study of Homo sapiens with 2 samples.

Results

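The 739 regions described here lay on chromosome 19 outside its zinc finger gene clusters, out of 23412 TARBP2-bound regions in all (3.16%). They were chosen by position alone: a region belonged when its midpoint on hg19 fell outside 6 stretches that hold the clusters, which left 41.3 of 59.1 Mb of the chromosome and 78.3% of its 944 regions. The regions came from MDA-LM2, a lung-metastatic derivative of a human breast cancer cell line, after it was transfected with a myc-tagged TARBP2 vector. The cells were UV cross-linked 48 hours later, and RNA bound to the tagged protein was recovered with an anti-myc antibody and sequenced (HITS-CLIP). There was 1 group of 2 replicates and 1 list of regions for both. The list gives each region a start, an end and a strand, with a score of 1 throughout, so values have no replicate error and the depth behind a region is unknown. The tagged protein was expressed from a transfected vector, and untransfected cells or a control library were not analysed here.

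TARBP2 binds double-stranded RNA, recognising paired stretches of an RNA rather than a fixed motif, and works with the nuclease Dicer when microRNA precursors are cut. It also binds structured parts of messenger RNAs and their unspliced precursors. Chromosome 19 is known as the most gene-dense human chromosome, with a high GC content and many short genes. Its zinc finger clusters are long tandem arrays of related transcription factor genes, and the chromosome between them carries mainly other, unrelated genes. Regions were not assigned to genes, because the annotation used here is on GRCh38 and coordinates were not converted. For the same reason no sequence of a region is shown.

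Regions were dense outside the clusters, long for this list, and crowded on 1 strand at a time. There were 17.9 per Mb (95% Poisson interval 16.6 to 19.2), against 11.5 per Mb (9.98 to 13.2) in the zinc finger stretches and 7.80 per Mb (7.70 to 7.90) on the other chromosomes together. The density was thus 1.56 times that of the zinc finger stretches and 2.29 times that of the other chromosomes. It was above each of the 22 other chromosomes, which ranged from 4.53 per Mb on chromosome 13 to 12.8 per Mb on chromosome 22. Regions covered 7.08 nt of each kb outside the clusters, against 4.04 nt in the zinc finger stretches and 1.30 to 4.44 nt on the other chromosomes. Intervals here cover counting error only and treat regions as separate events, which neighbouring regions are not. No test was run on these differences, since the list holds no replicates, and ranks among chromosomes describe this list.

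The 6 stretches between and beside the clusters, numbered from the short-arm end, differed widely. Stretch 1 (0 to 9.2 Mb) held 218 regions, or 23.7 per Mb. Stretch 2 (10.0 to 11.6 Mb) was the shortest and the densest, with 80 regions and 50.0 per Mb (39.6 to 62.2). Joined over same-strand gaps of up to 10 kb, its regions formed 27 groups, with 2.96 regions in each on average. That average was 1.78 to 1.99 in the other stretches, so the lead of stretch 2 was smaller by group than by region. Stretch 3 (12.7 to 19.8 Mb) held 171 regions, or 24.1 per Mb. The short arm was therefore covered at 23.7 per Mb or more in each of its 3 stretches. Stretch 4 (24.6 to 34.9 Mb), which includes the centromere, held 16 regions, or 1.55 per Mb (0.888 to 2.52). Its full length was used, and how much of it reads could align to was not examined. On the long arm, stretch 5 (38.4 to 44.2 Mb) held 101 regions, or 17.4 per Mb, and stretch 6 (45.0 to 52.3 Mb) held 153, or 21.0 per Mb. Apart from stretch 4, each stretch was denser than any other chromosome. Without stretch 4 the density was 23.3 per Mb, and without the dense stretch 2 it was 16.6 per Mb. Of the 6 zinc finger stretches, 5 lay between 7.43 and 18.8 per Mb, and the remaining one, at 44.2 to 45.0 Mb, held 3 regions (3.75 per Mb).

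**Figure D1:**
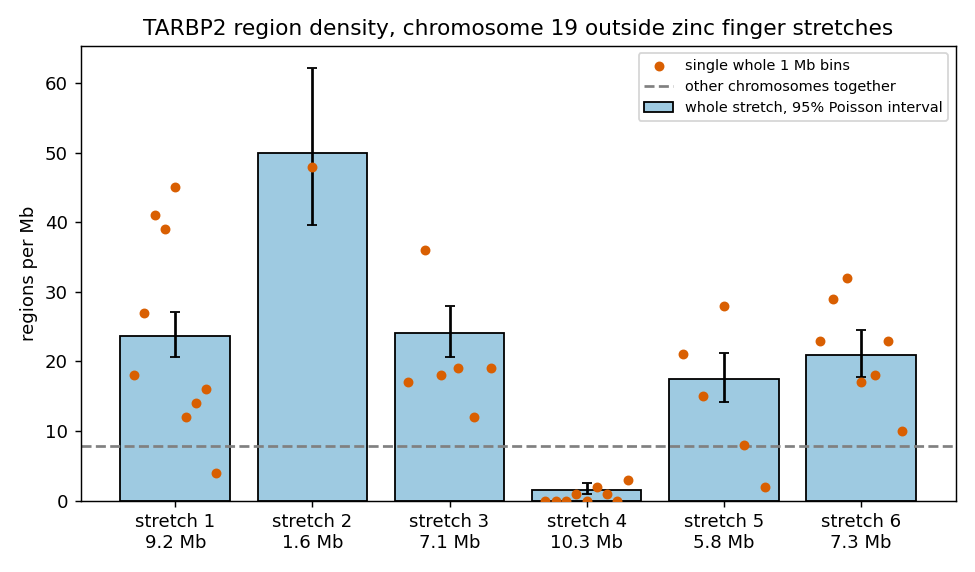
Regions per Mb in the 6 stretches of chromosome 19 outside the zinc finger clusters, in order along the chromosome. Bars give each stretch with its 95% Poisson interval, points give single 1 Mb bins that lie wholly outside the clusters, and the dashed line is the density of the other chromosomes together (7.80 per Mb). Stretch 2 stands at 50.0 per Mb and stretch 4 at 1.55 per Mb.

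At the scale of 1 Mb, counts varied within stretches as well. The 37 bins wholly outside the clusters held 0 to 48 regions, with a median of 17 and quartiles of 3 and 23. The 5 fullest of these whole bins were those from 10 to 11 Mb (48 regions), 4 to 5 Mb (45), 2 to 3 Mb (41), 3 to 4 Mb (39) and 14 to 15 Mb (36). Each of the 5 lay on the short arm. The bin from 19 to 20 Mb, only partly outside the clusters, held 38 members. Bins with 0 regions began at 25, 26, 27, 29 and 32 Mb, all within stretch 4, where the length open to alignment was not examined. In the 28 bins of the other stretches the count was 21.8 ± 11.9 (SD over bins) with a minimum of 2, in the bin from 43 to 44 Mb. Empty stretches of at least 1 Mb ran from 24269458 to 28358020, from 28358184 to 30445301, from 31105390 to 33001387, from 33574318 to 34707113 and from 42875245 to 43912044. The first 4 lay in stretch 4 or ran into it, and the last lay in stretch 5.

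The first region of the chromosome was 467 nt long on the minus strand, from 197447 to 197913, and the last one before the terminal zinc finger stretch was 249 nt long on the minus strand, from 52181373 to 52181621. The member nearest to a cluster boundary lay 1.21 kb from it, at 38401086 to 38401338, and the nearest region on the excluded side of any boundary lay 7.44 kb away, at 44992436 to 44992688. No domain of same-strand regions crossed a boundary (0 of 371).

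Counted per gene, the order was the opposite. Chromosome 19 as a whole held 64.1 regions per 100 protein-coding genes, the lowest of the 23 chromosomes, while the others ranged from 80.8 on chromosome 17 to 179 on chromosome 7. Its genes are both many and short in GENCODE 29. There were 25.1 protein-coding genes per Mb, against 3.34 to 14.3 on the other chromosomes, and the median gene length was 15.8 kb, against 16.3 kb on chromosome 11 to 52.8 kb on chromosome 18. Genes longer than 50 kb made up 10.8% of its protein-coding genes, against 21.2 to 52.8% elsewhere. Counted per Mb covered by protein-coding genes, chromosome 19 was the highest of the 23, with 28.7 regions per Mb of gene. The others ranged from 12.8 on chromosome 15 to 24.6 on chromosome 16. All regions of a chromosome were counted here, whether or not they lay in such a gene. With same-strand regions within 10 kb counted once, chromosome 19 had 15.2 per Mb of gene, and chromosome 22, at 16.7, was higher. Few regions per gene and many regions per length of gene thus stood side by side on the same chromosome. With the 254 genes named ZNF or ZFP left out and all 944 regions kept, there were 77.5 regions per 100 protein-coding genes. That was still below the lowest other chromosome (81.7). When all 944 regions were set against genes of every type, the value was 31.9 per 100 genes, and 3 of the 22 other chromosomes were lower.

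**Figure D2:**
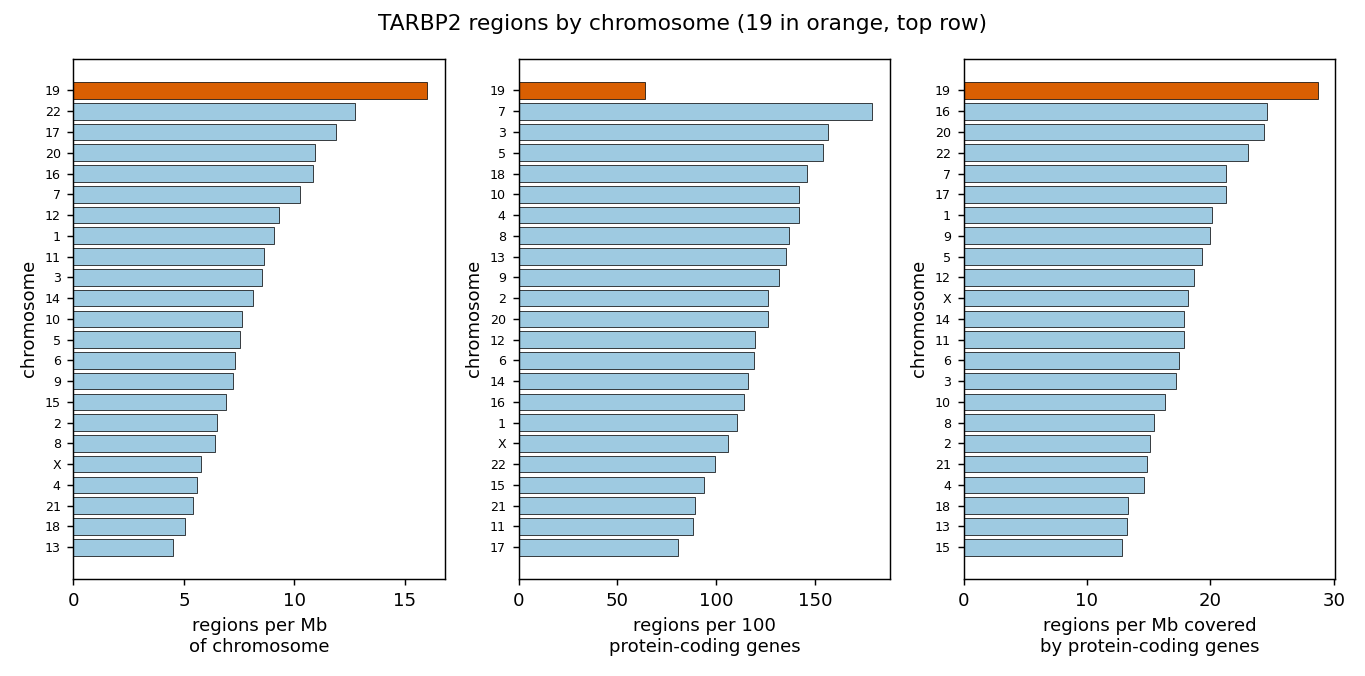
Regions per Mb of chromosome (left), per 100 protein-coding genes (middle) and per Mb covered by protein-coding genes (right), with chromosome 19 in orange on top and the other chromosomes in order of value. Chromosome 19 is highest on the left (16.0) and on the right (28.7) and lowest in the middle (64.1).

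Across the 23 chromosomes, regions per 100 protein-coding genes went with median gene length (Pearson r = 0.69, Spearman rho = 0.79), and without chromosome 19 the values were 0.65 and 0.76. Regions per Mb went with genes per Mb (r = 0.87, rho = 0.87), and without chromosome 19 the values were 0.84 and 0.85. These are descriptions over chromosomes that share 1 list of regions and 1 gene annotation, so no p-value is given. Gene numbers and lengths are those of GRCh38, taken per whole chromosome and set beside regions on hg19. They include the zinc finger clusters, because genes could not be divided by position without an annotation of the same build.

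Regions also lay several to a place. Regions on 1 strand with gaps of up to 10 kb were counted as 1 domain. The 739 regions formed 371 domains, or 8.98 per Mb, against 7.29 per Mb in the zinc finger stretches and 5.32 per Mb on the other chromosomes. By this count 1 other chromosome, chromosome 22 with 9.25 per Mb, was higher. A domain held 1.99 regions on average, against 1.58 in the zinc finger stretches and 1.14 to 1.84 on the single other chromosomes. Of the 371 domains, 242 (65.2%) held a single region, against 72.2 to 91.3% on the other chromosomes. Another 96 held 2 to 4 regions and 33 held at least 5. The 3 classes shared the regions almost evenly, with 242, 250 and 247 regions. Elsewhere 56.0% of regions were alone, 24.4% lay in domains of 2 to 4, and 19.6% in domains of at least 5.

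Domains of many regions were frequent. Those of at least 5 regions numbered 7.99 per 10 Mb, against 2.80 in the zinc finger stretches and at most 4.10 on any other chromosome (chromosome 17). Their median span was 17.1 kb, with quartiles of 10.8 and 18.8 kb, against 18.8 kb with quartiles of 13.1 and 26.9 kb on the other chromosomes. Domains of at least 10 regions made up 1.89% of all domains, against 0.829% elsewhere. The longest of the 371 domains spanned 36.9 kb and the fullest held 14 regions, against 104 kb and 46 regions among the 15325 domains elsewhere. In domains of at least 5, regions covered a median of 22.3%, against 18.6% elsewhere, and their median number per kb was 0.458, against 0.394 elsewhere. In domains of at least 10 the median covered share was 23.3%, against 24.1% elsewhere. With a fixed joining distance, domain size tends to rise with the density of regions, and a domain may span more than 1 gene. Across the 23 chromosomes, regions per domain went with genes per Mb (rho = 0.70, or 0.66 without chromosome 19). The share of regions with a same-strand neighbour within 10 kb did so too (rho = 0.73, or 0.69). Domain size at equal density was not tested.

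Distances between regions showed the same crowding, and they too depend on the density of regions. The nearest same-strand region lay at a median of 2644 nt, against 8258 nt in the zinc finger stretches and 4780 nt (chromosome 7) to 62846 nt (chromosome 13) on the other chromosomes. Of the members, 244 lay no more than 1000 nt from another region on their strand (33.0%, 95% exact binomial interval 29.6 to 36.5%), against 27.3% (21.3 to 34.0%) in the zinc finger stretches and 19.1% on the other chromosomes together. The highest single value among the other chromosomes was 28.9%, on chromosome 7. Within 10 kb the share was 67.3% (63.7 to 70.6%), against 50.7% (43.7 to 57.8%) in the zinc finger stretches and 44.0% on the other chromosomes. The intervals of chromosome 19 outside and inside the clusters overlapped at 1000 nt and were apart at 10 kb. Being near is mutual between neighbours, so these intervals are too narrow, and their overlap is not a test. The smallest gap between members was 108 nt. Without the 7 domains of at least 10 regions, the share within 1000 nt was 29.0%.

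**Figure D3:**
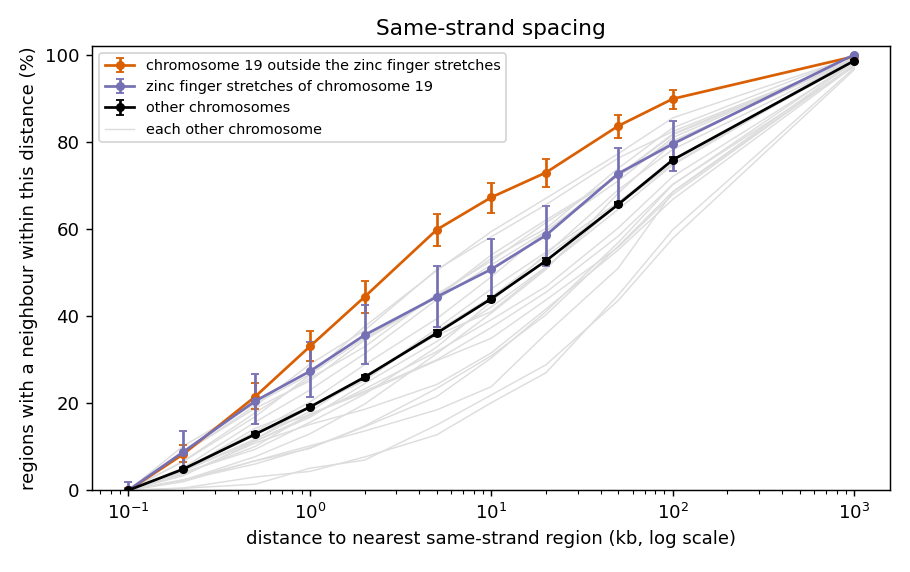
Share of regions with a same-strand neighbour within a given distance (log scale), for chromosome 19 outside the clusters, its zinc finger stretches and the other chromosomes together, with 95% exact binomial intervals. Grey lines are the single other chromosomes. At 10 kb the values are 67.3%, 50.7% and 44.0%.

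Neighbours nearly always shared a strand. Of 389 pairs of adjacent regions no more than 10 kb apart, 368 (94.6%, 91.9 to 96.6%) were on the same strand, against 93.7% (85.8 to 97.9%) in the zinc finger stretches and 84.6% (83.8 to 85.4%) on the other chromosomes. By definition, both regions of such a same-strand pair belong to the same domain. A large domain adds many pairs, so this share partly restates domain size, and the pairs are not separate events. Of the other 21 pairs, 11 converged, 8 diverged and 2 overlapped. The overlapping pairs were a 545 nt plus-strand region (7462974 to 7463518) with a 140 nt minus-strand region (7462880 to 7463019), and a 252 nt plus-strand region (42874993 to 42875244) with a 246 nt minus-strand region (42874783 to 42875028). They shared 46 and 36 nt. No domain of at least 5 regions had the midpoint of an opposite-strand region within it (0 of 33). The 545 nt region above was, however, the first of a domain of 8 regions. That domain was thus overlapped at its edge by the 140 nt minus-strand region, whose midpoint lay outside it.

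The minus strand held 420 regions and the plus strand 319, which put the share on the minus strand at 56.8% (53.2 to 60.4%), against 58.0% (51.0 to 64.9%) in the zinc finger stretches and 61.0% (60.4 to 61.7%) on the other chromosomes together. Of the 22 other chromosomes, 19 had a higher minus share. The share was far from even along the chromosome. It was 67.0% (60.3 to 73.2%) in stretch 1 and 70.8% (63.3 to 77.5%) in stretch 3, against 34.7% (25.5 to 44.8%) in stretch 5. Stretch 2 stood at 43.8% (32.7 to 55.3%) and stretch 6 at 51.6% (43.4 to 59.8%), and in stretch 4 only 4 of 16 regions were on the minus strand. Without stretches 1 and 3 the minus share was 43.7%, below the share of the plus strand. Single bins were more uneven still. From 14 to 15 Mb 34 of 36 regions were on the minus strand and from 46 to 47 Mb 26 of 29. From 47 to 48 Mb 27 of 32 were on the plus strand and from 41 to 42 Mb 23 of 28. Regions of 1 domain share a strand by definition, so these counts and the intervals above do not rest on separate events. Large domains held 6, 5 and 5 of the regions from 14 to 15 Mb, and 7 and 7 from 46 to 47 Mb. Single domains held 12 from 47 to 48 Mb and 14 from 41 to 42 Mb.

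The median length of members was above that of each other chromosome. It was 288 nt (95% interval 272 to 309 nt, from ranks), with quartiles of 249 and 467 nt and a range of 103 to 3252 nt. The median was 252 nt (249 to 271 nt) in the zinc finger stretches and 249 to 267 nt on the single other chromosomes. The exact length of 249 nt, the most common in the list, was found for 94 members (12.7%, 10.4 to 15.3%), against 18.0% (13.0 to 24.0%) in the zinc finger stretches and 14.5 to 26.5% on the other chromosomes. It was the length of 77 of 420 minus-strand members (18.3%) and 17 of 319 plus-strand members (5.33%), against 27.4 and 8.33% on the other chromosomes. Lengths of 400 to 499 nt and of 500 to 699 nt each made up 12.7% of members, against 8.21 and 7.66% on the other chromosomes. Without regions of exactly 249 nt the median was 324 nt, still above each other chromosome (251 to 304 nt).

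**Figure D4:**
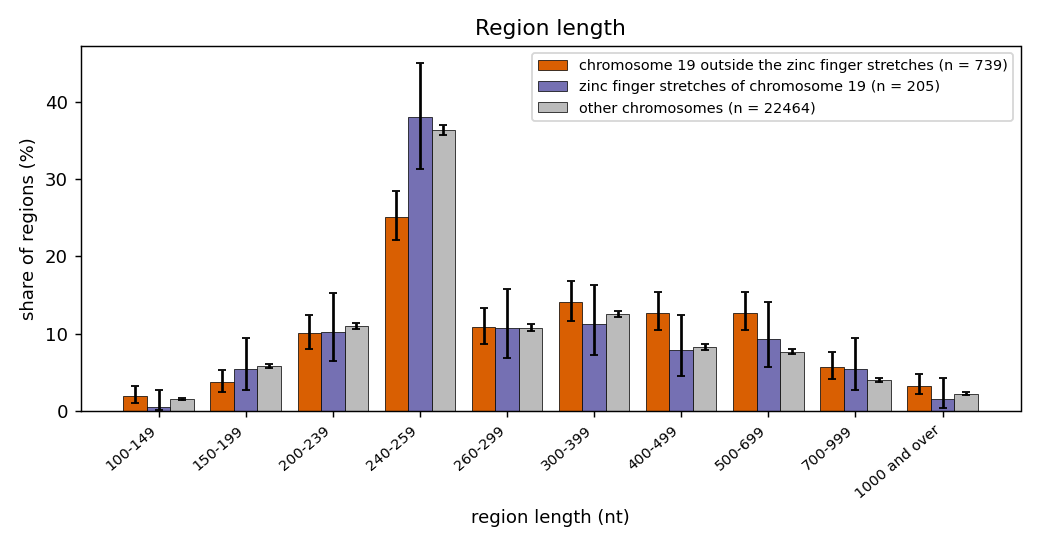
Share of regions by length class (nt), for chromosome 19 outside the clusters, its zinc finger stretches and the other chromosomes, with 95% exact binomial intervals. The class from 240 nt to below 260 nt holds 25.2% of members, against 38.0 and 36.4%.

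Length went with the number of neighbours. Members alone in their domain had a median of 249 nt, the same as on the other chromosomes. Those in domains of 2 to 4 regions had a median of 317 nt (287 to 361 nt), against 283 nt (279 to 287 nt) elsewhere. Those in domains of at least 5 regions had a median of 399 nt (354 to 439 nt), against 406 nt (397 to 415 nt) elsewhere. Among these classes the medians were thus close for regions alone and in domains of at least 5, and farther apart in domains of 2 to 4. The fullest domains, of at least 10 regions, had a median of 403.5 nt (344 to 449 nt), against 455 nt (441 to 469 nt) elsewhere. Regions of exactly 249 nt made up 24.8% of members alone and 7.29% of members in domains of at least 5, against 26.5 and 7.26% elsewhere. In domains of 2 to 4 their share was 6.40%, against 15.4% elsewhere, the widest difference among these classes.

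Of the members, 24 (3.25%, 2.09 to 4.79%) were longer than 1000 nt, against 1.46% (0.303 to 4.22%) in the zinc finger stretches and 2.21% (2.02 to 2.41%) on the other chromosomes together. Single other chromosomes ranged from 0.254% (chromosome 18) to 5.63% (chromosome 16), and 3 of the 22 were above the members. Stretch 1 held 10 of them and stretch 2 held 7. The longest, of 3252 nt, was alone on the plus strand from 1032958 to 1036209. The next was 2762 nt long on the minus strand from 46359354 to 46362115, in a domain of 7 regions. A region of 1844 nt (11236222 to 11238065, plus strand) belonged to a domain of 12, and 1 of 1824 nt (11560129 to 11561952, plus strand) to a domain of 3. The fifth longest, of 1669 nt, was alone on the minus strand from 563843 to 565511. Great length was therefore found both in crowded domains and in single regions, but more often in crowded domains. Of the 24, 4 were among the 242 members alone in their domain. Another 8 were among the 250 in domains of 2 to 4 regions, and 12 among the 247 in domains of at least 5.

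The domains with the most regions are given here by position. Domain 1, on the minus strand from 2069622 to 2095905, held 14 regions over 26.3 kb. In order of coordinate these measured 259, 510, 944, 577, 371, 313, 617, 421, 451, 680, 292, 374, 792 and 434 nt. They covered 26.8% of the domain, and none had the common length of 249 nt. Domain 2, on the plus strand from 41728913 to 41758210, also held 14, of 449, 245, 519, 224, 249, 400, 379, 399, 1100, 262, 700, 982, 651 and 269 nt. Its longest regions lay in the second part of the domain, the longest of them from 41750488 to 41751587. Domain 3, on the plus strand from 11219380 to 11239877, held 12 regions of 943, 1307, 359, 387, 250, 310, 1011, 441, 364, 912, 1844 and 928 nt. It was the most fully covered of the 10 domains shown, at 44.2% of 20.5 kb, with a median region length of 676.5 nt. A minus-strand domain of 7 regions, from 11251360 to 11261475, lay downstream of it on the opposite strand and was covered at 45.6%, the highest share among the 33 domains of at least 5 regions.

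Domain 4, on the plus strand from 47659596 to 47696515, spread 12 regions over 36.9 kb and was covered at 12.2%. Domain 5, on the minus strand from 19268573 to 19301970, held 11 regions with a longest of 750 nt, and domain 6, on the plus strand from 10835172 to 10859200, held 11 with a longest of 488 nt. Domain 7, on the minus strand from 50414656 to 50430457, held 10 regions within 15.8 kb. Domains 4, 5 and 6, covered at 12.2 to 14.8%, had median region lengths of 291 to 332 nt, against 676.5 nt in domain 3. Another 4 held 8 regions each: domain 8 on the minus strand (3539191 to 3557026), whose longest region was 1446 nt, domain 9 on the plus strand (3386182 to 3401238), domain 10 on the plus strand (38401086 to 38419667) and a further plus-strand domain (7462974 to 7475851). The last of these covered the fewest nt of the 4, and this tie left it out of the 10 domains shown. The 7 domains of at least 10 regions held 84 members (11.4%). Each domain lies on 1 strand by definition, and 3 of the 7 were on the minus strand.

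**Figure D5:**
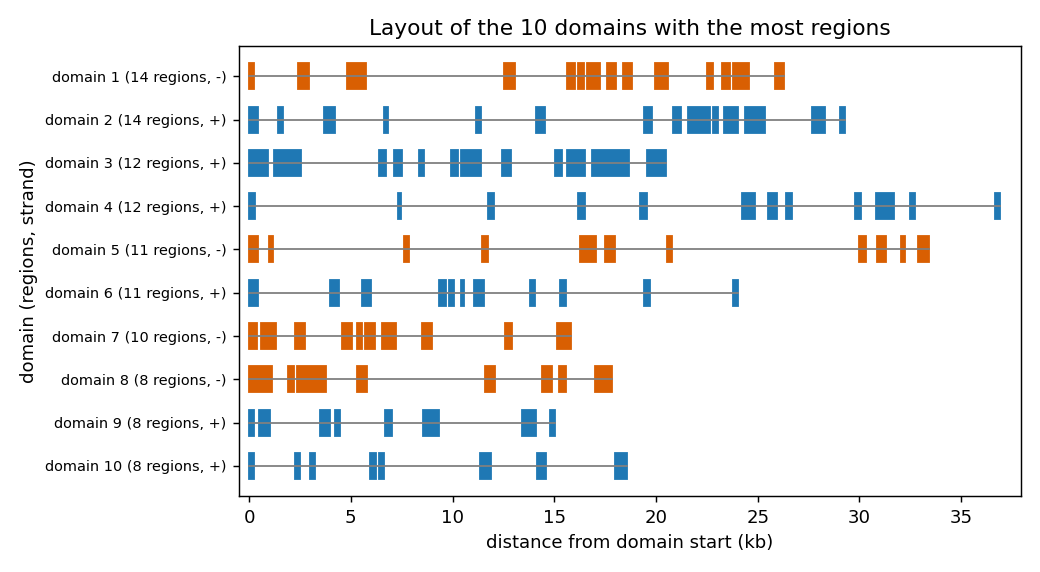
Layout of the 10 domains with the most regions (ties by covered length), as distance from the domain start (kb). Boxes are regions drawn to scale, orange on the minus strand and blue on the plus strand. Domain 3 is covered at 44.2% and domain 4 at 12.2%.

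By regions per kb, among domains of at least 5 regions, the order was different. The most crowded held 5 regions within 4.71 kb (1.06 per kb) on the minus strand from 14524752 to 14529465. It was followed by 7 regions on the minus strand from 46223202 to 46231592 (0.834 per kb) and 6 on the plus strand from 34860313 to 34868526 (0.730 per kb). The 7 regions from 11251360 to 11261475 came next (0.692 per kb), ahead of domain 7 (0.633 per kb). The domain at 34860313 held 6 of the 16 regions of stretch 4, the stretch with the fewest. The 33 domains of at least 5 regions were spread over all 6 stretches, with 9 in stretch 1, 5 in stretch 2, 9 in stretch 3, 1 in stretch 4, 3 in stretch 5 and 6 in stretch 6.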

How the data were processed

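RNA bound by myc-tagged TARBP2 was sequenced from 2 replicates of MDA-LM2 cells, named from the sample titles. Whether they came from separate cultures is not given. Per the submitters' processing notes, Bowtie was the aligner and hg19 the build. How regions were called and filtered, and what each replicate contributed, is not given in the sources used. The authors deposited 1 list with a score of 1 for every region. Starts, 0-based in the list, are printed 1-based. Excluded stretches and chromosome length are those of the rule that chose the members. Densities of other chromosomes use the span from the first to the last region. A domain is a run of regions on 1 strand with gaps of up to 10 kb. Gene numbers and lengths came from GENCODE 29 (GRCh38), per chromosome. Intervals are 95% exact binomial, exact Poisson or rank-based. The joining, spacing and membership steps were tested on simulated data. Named were the 10 domains with the most regions (ties broken by covered length, which left out 1 domain of 8 regions), the 5 most crowded of at least 5 regions, the 5 longest regions, the end regions, and the fullest and empty bins. Ranks of bins were taken among whole bins, a limit planned for the empty bins only. Other domains, regions and bins named were chosen after their values were seen. The planned naming of genes was not run. Members and lists were chosen with earlier results of these data known. Tools were pandas 2.3.3, numpy 2.4.6, scipy 1.17.1 and matplotlib 3.10.9 under Python 3.11.15.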

Additional observations from a re-analysis of the deposited data

How the results depend on the processing

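Of 26 alternative values, 10 stayed within the interval of the value reported, or within 1.5 times for a count of domains. Density was 15.6 per Mb without regions of 249 nt, 8.98 with same-strand regions within 10 kb counted once, and 23.5 with empty stretches of at least 1 Mb taken out. Settings chosen after the data were seen gave 23.3 without stretch 4, 16.6 without stretch 2, 21.9 without both and 15.9 without domains of at least 10 regions. Median length was 324 nt without regions of 249 nt and 249 nt for regions alone in their domain. The minus share was 53.2% without regions of 249 nt and 43.7% without stretches 1 and 3. The share with a near neighbour was 21.5% at 500 nt, 44.4% at 2000 nt, 67.3% at 10 kb and 29.0% without domains of at least 10 regions. Regions per 100 genes were 31.9 for all genes and 77.5 without genes named ZNF or ZFP. These shifts follow from which regions, stretches, distances or genes were counted. No paired analysis was possible because the list merges both replicates of the single group, and neither replicate could be left out. Regions per gene with strand were not run. Depth is unknown and could not be used to weigh regions.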

Other observations

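Each region carries a serial number in its name, and along a strand many serial numbers are skipped. Why those were skipped is not given in the sources used. Outside the clusters, 739 of 3297 numbers (22.4%, 95% exact binomial interval 21.0 to 23.9%) were listed, against 22.6% (19.9 to 25.5%) in the zinc finger stretches and 9.70% (chromosome 13) to 20.3% (chromosome 20) on the other chromosomes. The numbers themselves, listed or not, came to 79.8 per Mb, against 50.6 per Mb in the zinc finger stretches and 42.6 to 79.1 per Mb on the other chromosomes. The listed share was close on both strands, at 22.7% of minus-strand and 22.1% of plus-strand numbers, and 56.2% of the numbers fell on the minus strand. Numbers were counted from the first to the last listed in each stretch and strand.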
